A study of Neurospora crassa with 12 samples.

Results

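A group of 210 genes of the filamentous fungus Neurospora crassa was highest at germ tube extension when compared with the stages just before and just after it. The libraries came from conidia (asexual spores) of strain FGSC2489, a wild-type strain of mating type A, germinating, per the growth protocol, at 37 °C on Bird medium, which supports asexual growth. There were 4 stages with 3 libraries each, 12 in all. Stage 1 held conidia just plated, stage 2 conidia in polar growth, stage 3 extending germ tubes and stage 4 hyphae that began to branch. The sample titles place them at 15, 60, 120 and 240 min, whereas other labels give 15, 120, 240 and 360 min, with the same groups in the same order. The labels also differ on the medium. The growth protocol gives Bird medium at 37 °C, while the source name mentions PDA (potato dextrose agar), and in the study's methods the titles' times go with Bird medium and the other times with PDA at a lower temperature. Bird medium at 37 °C is therefore taken from the protocol. The name under which the counts were deposited also gives it, and it was not checked otherwise. No genotype or treatment differed between the stages, so every comparison is between times of 1 culture condition. A stage was harvested once most but not all of the cells had reached it, and a replicate was tissue gathered from several plates in a single collection.

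Members were chosen from the count table by their mean level over the 3 libraries of each stage. Levels are given as CPM, counts per 1000000 counts of the library outside its 2 most abundant rRNA genes. A member had a stage 3 mean of at least 20 CPM that was at least 1.7 times the higher of the stage 2 and stage 4 means. Its stage 3 mean was also above the stage 1 mean divided by 4, and the lower of its stage 2 and stage 4 means was below 4 times stage 1. Of 10592 genes, 5036 reached 20 CPM in stage 3, 232 of those passed the ratio, and the 210 remained after 22 were dropped by the bounds on stage 1 (5 with stage 1 too high and 17 with stage 1 too low). All 210 were among the 8330 genes expressed highly enough to be tested. Since stages 1 to 4 chose the members, the height of the peak is a description and not a finding.

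A conidium that germinates takes up water, makes a germ tube and extends it by polar growth until the hypha branches. Growth draws on respiration in the mitochondrion, where complex I passes electrons from NADH into the chain and the cytochrome complexes carry them to oxygen. Fungi also have an alternative oxidase, which takes electrons before the cytochrome complexes, and is known in N. crassa to be induced when the cytochrome route is impaired. Amino acid synthesis in this fungus is under cross-pathway control, in which a kinase and a transcription factor raise many biosynthetic genes together.

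Libraries of stages 2 and 4 were, at the median, slightly closer to each other than replicates within either of those stages. Over 5026 nuclear genes at 20 CPM or more in stage 3, the log2 difference between a stage 4 and a stage 2 library had an SD of 0.10 to 0.17, against 0.15 to 0.16 between stage 2 replicates and 0.16 to 0.17 between stage 4 replicates. The medians were 0.151, 0.161 and 0.164 in the same order. The closest pair of any libraries was stage 4 replicate 3 with stage 2 replicate 3. Between stage 3 and stage 2 the SD was 0.38 to 0.43. Whether these libraries hold the stages their labels name was not tested, so a peak here means stage 3 above 6 libraries that the data do not separate into 2 stages.

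The stage 3 level of the 210 members was between 1.7 and 38.1 times the higher of the neighbouring stages, with a median of 2.00. It was at least 2 times that level in 104 members, at least 3 times in 32, at least 4 times in 12 and at least 5 times in 6. Without the rRNA and mitochondrial members described next, these counts were 97, 27, 8 and 3 of 202, and the median was 1.98. Most members were moderately expressed, with a median of 63.4 CPM in stage 3 and 141 members below 100 CPM. Only 14 exceeded 500 CPM, 9 of them nuclear genes other than rRNA. The members just inside the ratio were nuo21.3a at 1.703, NCU05960 at 1.705 and his-6 at 1.705, and the genes just outside it were NCU03118 at 1.699, NCU07937 at 1.697 and nuo20.8 at 1.694, so the boundary runs through a continuous range.

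A set of 8 members peaked in 1 library only. These are 4 rRNA genes (NCU17319, NCU15719, NCU17318 and NCU15828) and 4 features of the mitochondrial genome (NCU16016, NCU16017 and the pseudogenes NCU16301 and NCU16302). Stage 3 replicate 2 exceeded the mean of the other stage 3 libraries by between 4.14 and 60.6 times in them. For NCU15828 the stage 3 libraries had 31.4, 1640 and 22.8 CPM, against 47.4, 21.9 and 39.1 CPM in stage 2. For the mitochondrial gene NCU16017 they had 5.06, 163 and 5.16 CPM, against 6.09, 4.76 and 6.37 CPM in stage 2. In all 8, stage 3 overlapped stages 2 and 4. The same library gave 37.9% of its counts to rRNA genes, against 1.68% to 11.3% in the others, and its mitochondrial genes summed to 4253 CPM, against 388 to 1117 CPM elsewhere.

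In the other 202 members, all of nuclear genes other than rRNA, every stage 3 library lay above every library of stages 2 and 4. Over all 8330 genes tested this held for 28% (2332 genes). The rule favours such genes, so nothing is read from the difference. Stage 3 replicate 2 stood at 0.484 to 1.43 times the mean of the other stage 3 libraries in these members, with a median of 1.09, and the stage 3 coefficient of variation had a median of 8.28%. It was largest for chit-1, at 39.9%. Together the 202 members summed to between 21012 and 22559 CPM in stage 1, 12482 and 12890 CPM in stage 2, 26400 and 27933 CPM in stage 3, and 12411 and 12874 CPM in stage 4. Applying the rule without stage 3 replicate 2 gave 181 genes, which left out the 8 rRNA and mitochondrial members and 27 others, including aro-7, ylo-1, his-6, nuo11.5 and nuo21.3a. With CPM scaled to whole library totals, rRNA included, the rule gave 110 genes, among them 104 of the 202.

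**Figure D1:**
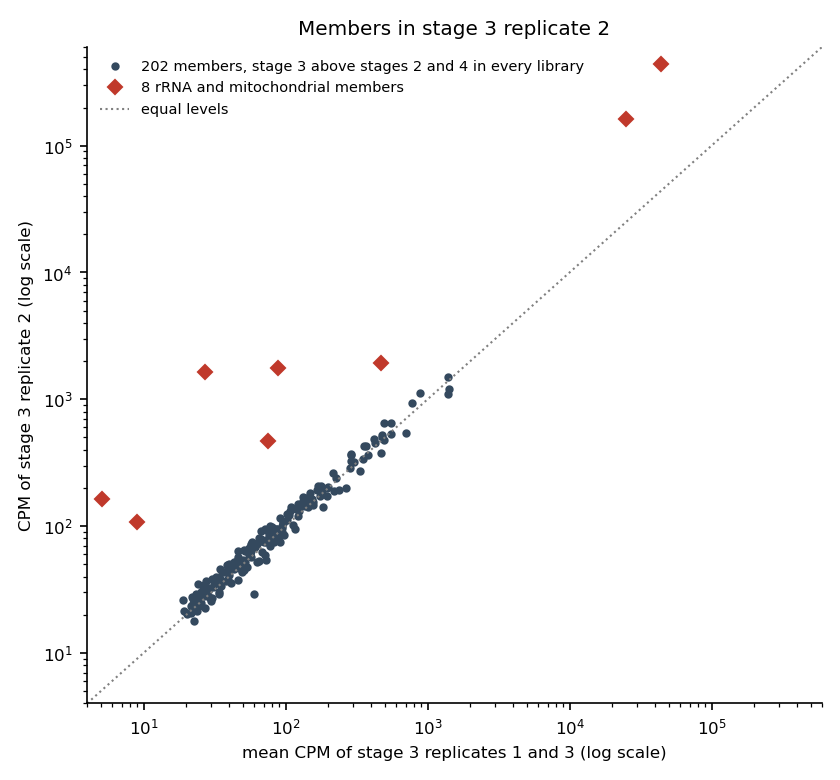
CPM of each member in stage 3 replicate 2 (vertical, log scale) against the mean CPM of stage 3 replicates 1 and 3 (horizontal, log scale). Each point is a member, and the dotted line marks equal levels. The 202 nuclear members lie along the line, whereas the 8 rRNA and mitochondrial members lie 4.14 to 60.6 times above it.

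The first question was how the members differed between successive stages. With edgeR's quasi-likelihood test (adjusted p below 0.05 over all genes), 205 of 210 members were higher in stage 3 than in stage 2 and 0 were lower, where 20.8% of all genes tested were called higher and 18.2% lower. Between stages 4 and 3, 206 were lower in stage 4 and 0 higher, where 20.8% of all genes were called lower and 18.2% higher. The rule used both contrasts, so nothing is read from these counts. They include NCU15828, NCU16016, NCU16017 and NCU16302 in both contrasts and NCU17318 in the second. Those genes peaked in stage 3 replicate 2 only. The median log2 change of the members was 0.97 for stage 3 minus stage 2 and -0.98 for stage 4 minus stage 3. One nuclear member, NCU01060, was not called in either contrast. It had 35.5, 45.5 and 34.0 CPM in stage 3, against 21.7, 0 and 17.2 CPM in stage 2, so a single stage 2 library was at 0.

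The second question was whether members at the onset of branching had returned to their level at polar growth. The rule bounds both stages from above but leaves their difference free. Between stage 4 and stage 2, 0 of 210 members were called higher and 0 lower, and 0% of all genes were called in either direction. At an unadjusted p below 0.05 there were 0 members and 136 of 8330 genes, a smaller share than 0.05. DESeq2 called 0 members and 1 gene in all. The ratio of stage 4 to stage 2 lay within 10% of equality in 193 of the 202 nuclear members (95.5%), and in 98.4% of the 4826 other genes tested with at least 20 CPM in stage 3. Among the members it had extremes of 0.856 for NCU17064 and 1.42 for NCU01060. The log2 change had a median of -0.013 and was within 0.5 of 0 in 208 of the 210 (99.0%), against 99.8% of those 4826 genes. Nothing is therefore particular to the members in this comparison. With 3 libraries a stage and a median standard error of 0.097 on the log2 scale, small differences were not detectable, and the result is a lack of calls over the whole table as much as in the members.

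The third question was how members stood against fresh conidia. Against stage 1, 49 members were called higher in stage 2 and 121 lower, where 39.4% and 37.9% of all genes were called. In stage 3, 131 were higher than in stage 1 and 54 lower, with 40.8% and 37.8% of all genes. The 131 include all of the rRNA and mitochondrial members, whose high stage 3 means rest on stage 3 replicate 2. The median log2 change of the members was -0.53 for stage 2 minus stage 1 (0.013 over all genes) and 0.58 for stage 3 minus stage 1 (0.033 over all genes). The rule bounded these changes only loosely, and they too are given as a description. The ratio of stage 3 to stage 1 ranged from 0.252 for NCU03254 to 93.9 for NCU00265, with a median of 1.63. Stage 3 was the highest of all 4 stages in 151 members, the rRNA and mitochondrial members among them.

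Among the 202 nuclear members, 5 courses were distinguished by these calls. In 1 course were 49 members that were higher than conidia at polar growth and higher at germ tube extension, such as aod-1, ada-1, ccg-16 and ylo-1. Another held 31 that were not called at polar growth and were higher at germ tube extension, such as acu-9, chit-1 and NCU07126. A further 43 were lower at polar growth and higher than conidia at germ tube extension, such as gcy-1, ada-6, pks-3 and cpc-3. Another 24 were lower at polar growth and not called at germ tube extension, such as arg-12 and NCU08674. The last 54 were below conidia at both stages, such as ubi, gst-3, gst-4, his-6 and al-2. The remaining member, NCU01060, was called in neither. Conidial marker genes had a summed level of 15990 to 19597 CPM in stage 1 and 1919 to 2214 CPM later. Of 9 such markers tested, 5 were lower and 1 (ccg-9) higher in stage 3 than in stage 2, with a median log2 change of -2.02, and none was a member. Their sum did not fall in the same way, at 2020 to 2090 CPM in stage 2 and 1919 to 2214 CPM in stage 3. Growth markers, drawn from actin, tubulin, chitin synthase and polarity genes, summed to 1040 to 1215 CPM in stage 1 and 2545 to 2984 CPM later. Of 7 tested, 1 was higher and 2 lower in stage 3 than in stage 2, with a median of -0.012 and 0 members. Over all genes tested 20.8% were higher and 18.2% lower. In such bulk samples, fewer cells of a kind and less RNA per cell cannot be told apart.

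**Figure D2:**
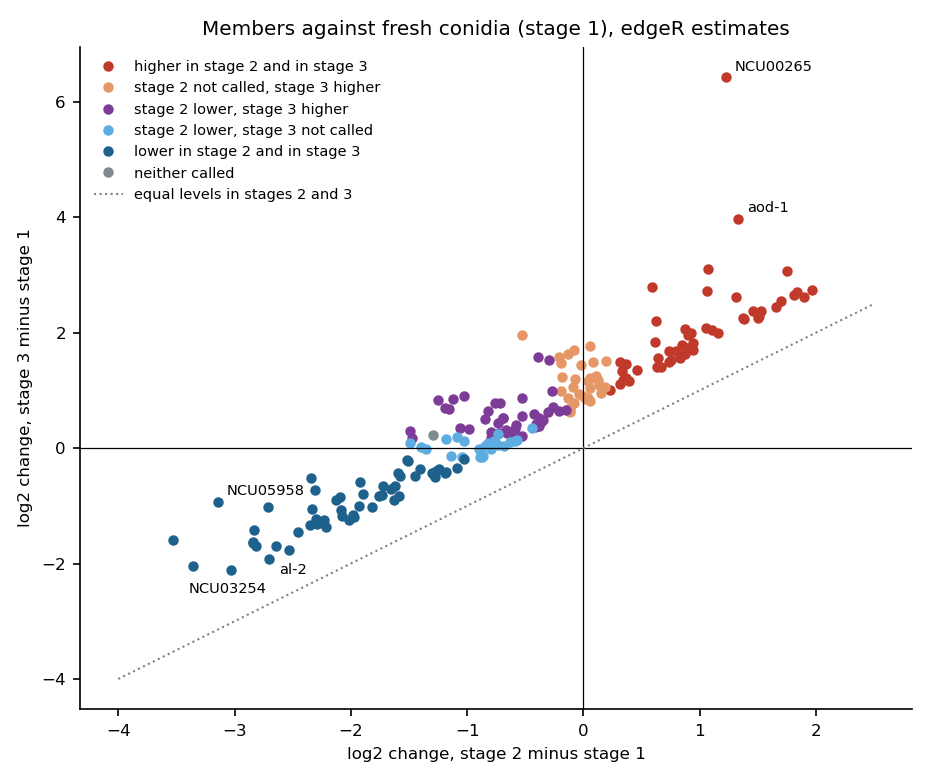
Log2 change of stage 3 minus stage 1 (vertical) against stage 2 minus stage 1 (horizontal) for the 202 nuclear members, with edgeR estimates coloured by the calls. All points lie above the dotted line of equal levels in stages 2 and 3, as the rule requires. The 54 members below conidia at both stages are at the lower left and the 49 above conidia at both at the upper right.

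The largest peak was that of NCU00265, a protein-coding gene with no symbol on chromosome III (NC12 assembly, 3218739 to 3220987). It had 2.71, 2.85 and 2.21 CPM in stage 1, 6.22, 6.38 and 6.54 CPM in stage 2, 253, 200.2 and 276 CPM in stage 3, and 6.86, 5.49 and 6.03 CPM in stage 4. Its stage 3 libraries were thus far above all others, at 38.1 times the higher neighbouring stage and a log2 change of 5.2 ± 0.14 (SE, stage 3 minus stage 2). No other nuclear member came near this ratio, the next being aod-1 at 5.99. The gene was almost silent in fresh conidia, at 2.59 ± 0.33 CPM (SD, n = 3).

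Other steep peaks belonged to genes at lower levels. The chitinase gene chit-1 (chitinases cut the chitin of the fungal wall) had 9.88, 12 and 13.3 CPM in stage 1, 7.88, 8.40 and 9.44 CPM in stage 2, 51.3, 29 and 68.4 CPM in stage 3, and 8.23, 8.42 and 9.78 CPM in stage 4. The stage 3 libraries did not overlap the others but differed among themselves by more than in any other nuclear member. Of 8 chitinase genes tested, 3 were higher in stage 3 than in stage 2 (chit-1, gh18-7 and gh18-5) and 1 lower (gh18-4), and the median log2 change of the list was 0.32. Over all genes tested 20.8% were higher and 18.2% lower. NCU00149 had 16.7, 15.6 and 17.2 CPM in stage 2, 65.7, 95.1 and 77.3 CPM in stage 3, and 15.5, 13.6 and 15.4 CPM in stage 4. Its annotated span overlaps that of NCU00148, which was also a member. NCU05958 was at 108, 128 and 117 CPM in conidia, 14.2, 14.9 and 13.2 CPM in stage 2, 70.7, 58.8 and 73.7 CPM in stage 3, and 13.1, 14.7 and 11.8 CPM in stage 4. Its stage 3 mean was 0.575 times its conidial mean. NCU08786 had 12.8, 12.1 and 13.4 CPM in conidia, 5.09, 4.98 and 6.83 CPM in stage 2, 23.1, 26.9 and 25.1 CPM in stage 3, and 5.86, 5.54 and 5.52 CPM in stage 4. None of NCU00149, NCU05958 and NCU08786 has a symbol in the annotation.

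**Figure D3:**
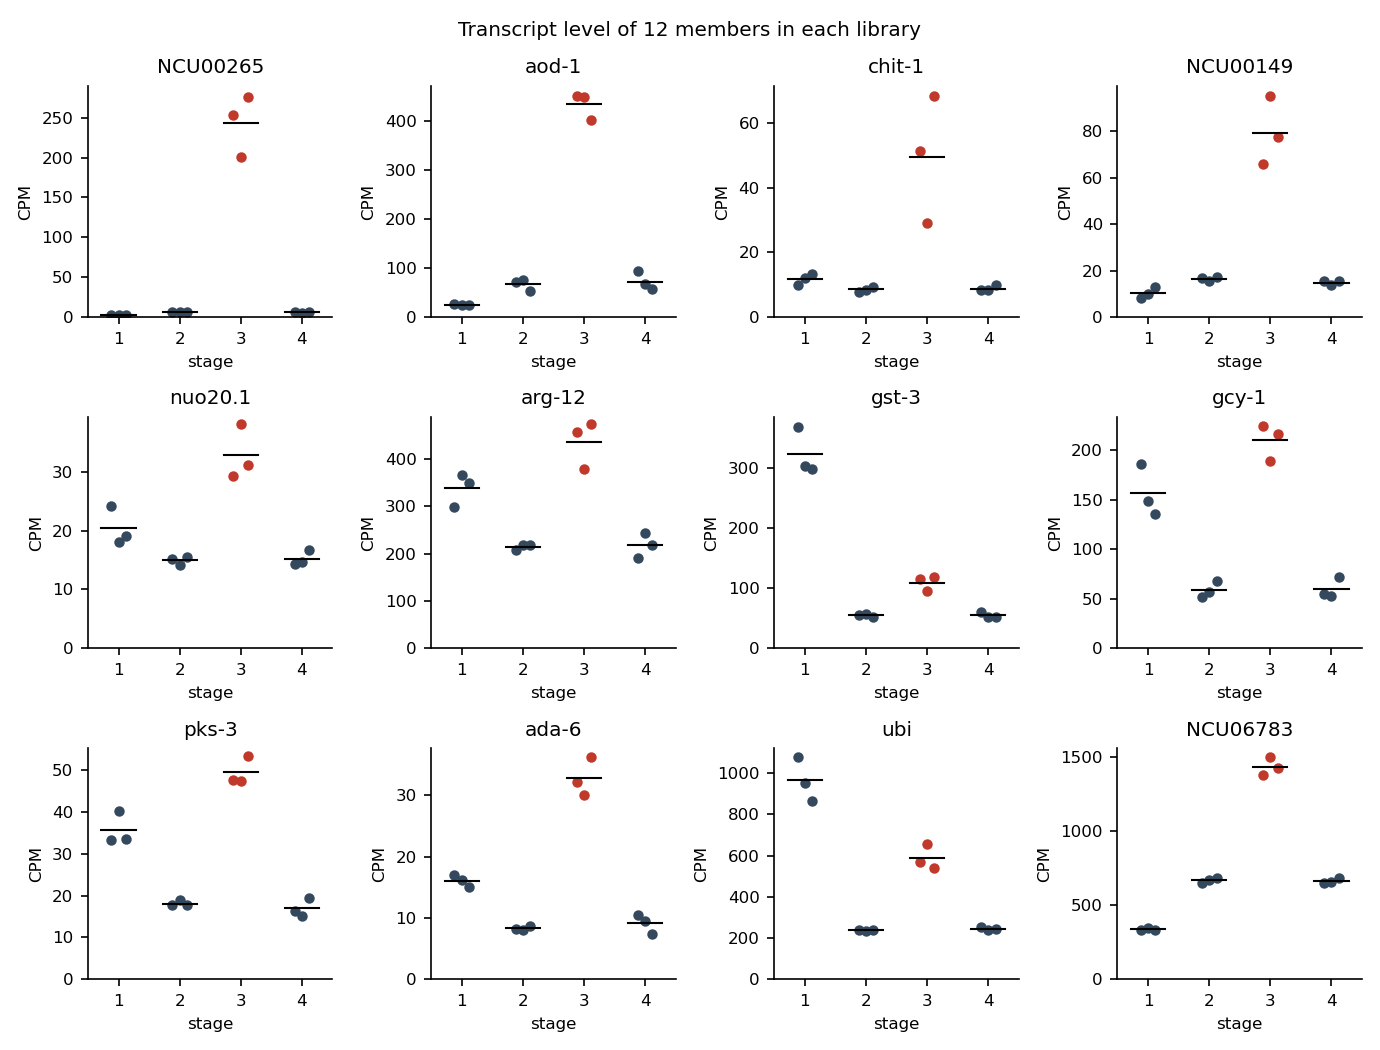
CPM (vertical, linear from 0) of 12 members in each library, by stage (1 fresh conidia, 2 polar growth, 3 germ tube extension, 4 onset of branching). Points are single libraries, red in stage 3, and bars are stage means (n = 3). Stage 3 stands above stages 2 and 4 in every panel, whereas stage 1 is highest in gst-3 and ubi and lowest in NCU00265, aod-1, NCU00149 and NCU06783.

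Genes of the respiratory chain were prominent among the members that have a symbol. The gene aod-1 encodes the inducible alternative oxidase. Its level was 26.5, 25.5 and 23.8 CPM in stage 1, 72.2, 75.5 and 52.9 CPM in stage 2, 450.1, 449 and 402 CPM in stage 3, and 93.7, 66.8 and 56.8 CPM in stage 4. The stage 3 libraries were more than 4 times the highest of the others, and the log2 change was 2.64 ± 0.17 for stage 3 minus stage 2 and -2.53 ± 0.17 for stage 4 minus stage 3. The second oxidase gene, aod-3, was at 3.26 CPM in stage 3, against 1.41 CPM in stage 2, a change that passed the test but at a level far below the rule. The transcription factor genes of aod-1 did not share its course. The level of aod-2 was 61.5 CPM in stage 3 and 68.5 CPM in stage 2, a fall (log2 change -0.21, adjusted p = 0.026), and that of aod-5 was 99.2 CPM in stage 3 and 92.7 CPM in stage 2, which did not pass the test.

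Of 29 nuclear genes for complex I subunits (nuo genes), 12 were members, namely nuo20.1, nuo10.6, nuo24, nuo9.8, nuo21.3c, nuo21.3b, nuo12.3, nuo29.9, nuo10.4, nuo30.4, nuo11.5 and nuo21.3a. Each was expressed at a low to moderate level. The largest ratio was that of nuo20.1, with 24.3, 18.1 and 19 CPM in stage 1, 15.1, 14.2 and 15.5 CPM in stage 2, 29.4, 38.2 and 31.2 CPM in stage 3, and 14.3, 14.6 and 16.7 CPM in stage 4. For nuo10.6 the values were 48.2, 34.8 and 37.6 CPM, 28.9, 32.4 and 33.1 CPM, 59.6, 72.9 and 66.9 CPM, and 29.8, 25.6 and 34.2 CPM in stages 1 to 4. In both, stage 3 stood clear of every other stage. The 12 members differed little in the height of the peak, from 1.7 to 2.16 times the higher neighbouring stage, which is near the lower bound of the rule.

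Most complex I genes outside the group were also higher in stage 3, by a smaller amount. Of all 29, 25 were higher and 1 lower in stage 3 than in stage 2, with a median log2 change of 0.70 (0 over all 8330 genes). These figures include the 12 members, which the rule chose for this rise. Among all genes tested 20.8% were higher and 18.2% lower. Between stages 4 and 3, 26 were lower and 1 higher in stage 4, with a median of -0.67. The exception was nuo17.8, at 80.0 CPM in stage 3 and 98.2 CPM in stage 2 (log2 change -0.35, adjusted p = 0.0009). For nuo40, nuo14.8 and nuo10.5 the log2 changes were 0.010, 0.017 and 0.11, and these did not pass the test. Complex I genes summed to 1077 to 1301 CPM in stage 1, 873 to 913 CPM in stage 2, 1242 to 1419 CPM in stage 3, and 804 to 933 CPM in stage 4. Stage 3 replicate 2, the library with the high mitochondrial and rRNA level, had the highest of these sums, and without it the stage 3 sums of 1242 and 1300 CPM still lay above all of stages 2 and 4. The 2 genes for complex I assembly factors, cia84 and cia30, were not members but were higher in stage 3, at 89.8 CPM against 50.04 CPM in stage 2 for cia84 and at 60.7 CPM against 38.7 CPM for cia30.

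The listed genes of other entry points and complexes of the chain showed few calls. The 4 alternative NADH dehydrogenase genes (nde-1, nde-2, nde-3 and ndi-1) had log2 changes of -0.097 to -0.019 between stages 3 and 2, and edgeR called 0 of 4 (0 at an unadjusted p below 0.05, 0 by DESeq2). Of 12 genes for complexes III, IV and V and cytochrome c, 1 was higher in stage 3 (cyc-1, cytochrome c, 2817 CPM in stage 3 and 2043 CPM in stage 2) and 0 lower, with a median log2 change of 0.014. These 12 were taken by symbol after the values had been seen, and whether they cover the complexes in full was not checked. Among all genes tested 20.8% were higher and 18.2% lower. Of 35 genes of the mitochondrial genome that were tested, 9 were higher in stage 3, but all stage 3 libraries exceeded those of stages 2 and 4 in 1 only, and stage 3 replicate 2 alone raised the sum.

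**Figure D4:**
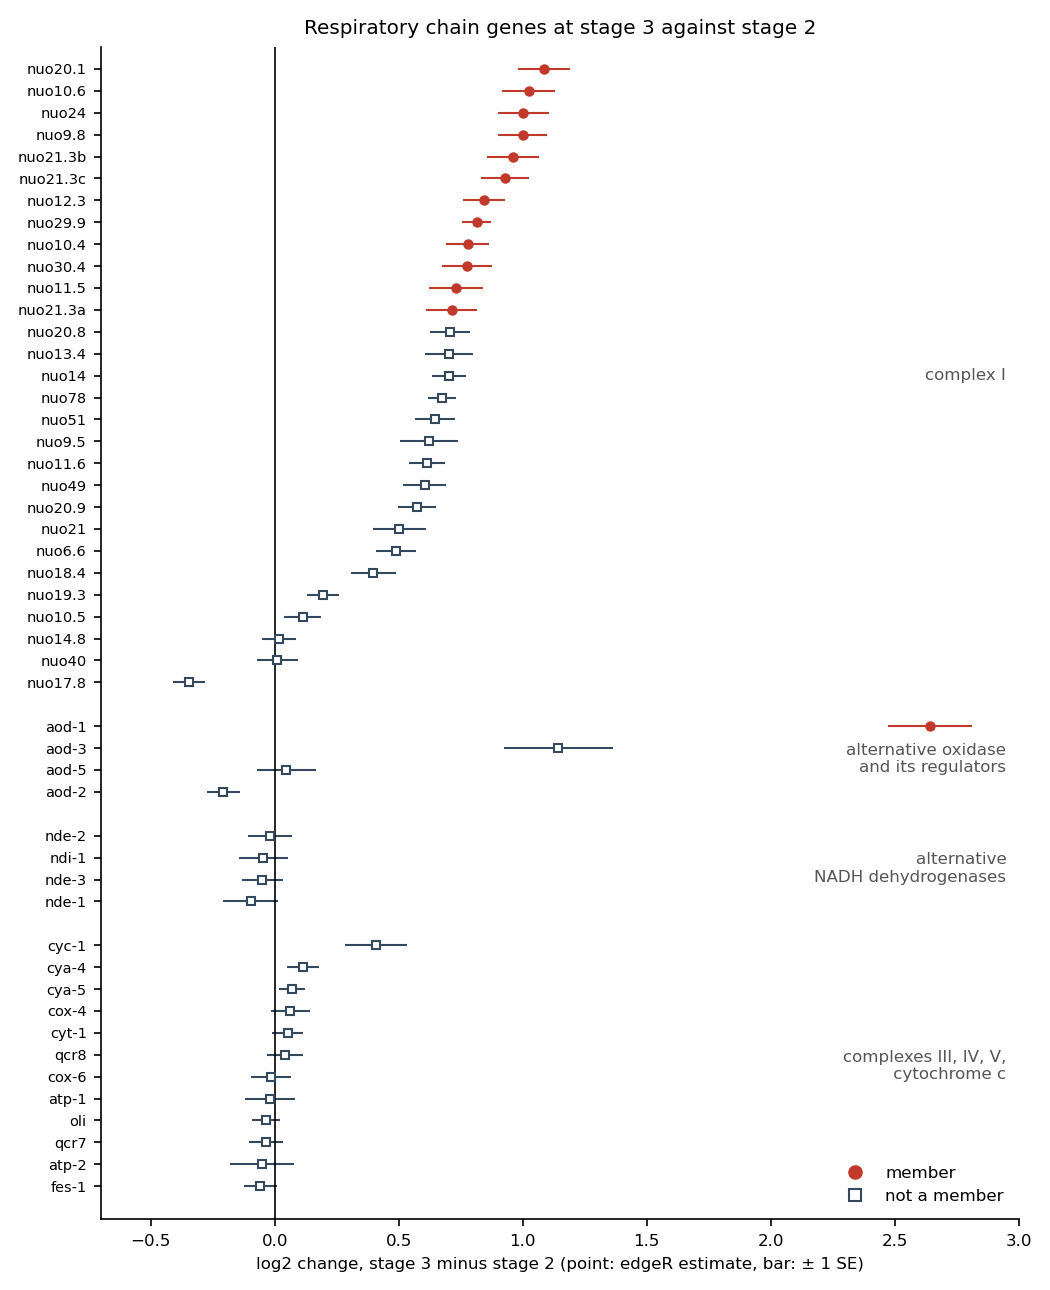
Log2 change of stage 3 minus stage 2 (horizontal, point: edgeR estimate, bar: 1 SE to each side) for 49 respiratory chain genes in 4 groups. Filled points are members. Complex I genes run from -0.35 to 1.09 with 28 of 29 above 0, and aod-1 stands at 2.64. The alternative NADH dehydrogenases and the 12 listed genes of complexes III to V and cytochrome c lie near 0 except cyc-1 at 0.41.

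Amino acid synthesis gave 6 members with a symbol. The arginine pathway was represented by arg-12 (ornithine carbamoyltransferase), arg-5 (acetylornithine aminotransferase) and arg-10 (argininosuccinate lyase). For arg-12 the level was 298, 367 and 349.8 CPM in stage 1, 209, 218 and 218 CPM in stage 2, 458, 379 and 475 CPM in stage 3, and 190.1, 245 and 218 CPM in stage 4. Stage 3 was above every other library of the course for this gene. By contrast arg-5 had 342, 434 and 444 CPM in stage 1, 181, 181 and 182 CPM in stage 2, and 349.7, 338 and 354 CPM in stage 3, so stages 1 and 3 overlapped. The level of arg-10 was 834 ± 89.4 CPM in stage 3 and 870.2 ± 38.5 CPM in stage 1 (SD, n = 3 each). Of 11 arginine genes tested, 6 were higher and 0 lower in stage 3 than in stage 2, with a median log2 change of 0.34. All genes tested gave 20.8% higher and 18.2% lower, and the rule required the rise of the 3 members. The other 3 called were arg-13 (the mitochondrial ornithine carrier), arg-14 (acetylglutamate synthase) and arg-4.

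The genes aro-7 and aro-8 encode 2 of the enzymes that open the aromatic pathway (DAHP synthases), and his-6 belongs to histidine synthesis. The level of aro-7 was 877, 1126 and 892 CPM in stage 3, against 544, 534 and 555 CPM in stage 2, and that of aro-8 was 534, 536 and 571 CPM in stage 3, against 296, 295 and 304 CPM in stage 2. The remaining DAHP synthase gene, aro-6, was at 501 CPM in stage 3 and 499 CPM in stage 2. For his-6 the stage 3 libraries had 482, 526 and 479 CPM, against 287, 287 and 289 CPM in stage 2. All of these members were higher in conidia than at germ tube extension, as aro-7 with 1173 ± 82.5 CPM in stage 1. Over 39 other amino acid genes tested, these members included, 15 were higher and 3 lower in stage 3, with a median log2 change of 0.13. All genes tested gave 20.8% higher and 18.2% lower. The regulators of cross-pathway control were split. The kinase gene cpc-3, related to yeast GCN2, was a member with 191, 204 and 205 CPM in stage 3, against 98.6, 98.8 and 107 CPM in stage 2. The transcription factor gene cpc-1 was higher in stage 3 at 3304 CPM, against 2319 CPM in stage 2, and cpc-2 was lower at 3285 CPM, against 4014 CPM.

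Both gst members encode glutathione S-transferases, enzymes that conjugate reactive compounds to glutathione. For gst-3 the level was 369, 303 and 298 CPM in stage 1, 54.7, 57.3 and 51.0 CPM in stage 2, 114, 94.6 and 118 CPM in stage 3, and 59.3, 52.5 and 52.2 CPM in stage 4. For gst-4 the values were 390.5, 411 and 405 CPM, 90.2, 85.5 and 83.2 CPM, 196, 173 and 194 CPM, and 93.1, 91.9 and 83.4 CPM in stages 1 to 4. Each was highest in conidia and formed a second, lower maximum in stage 3. The other genes of this name, gst-1 and gst-2, also passed the test, so 4 of 4 were higher in stage 3 than in stage 2, with a median log2 change of 0.92. The rule required the rise of the 2 members among them, and the list was drawn up after the values had been seen. Catalases and superoxide dismutases were mixed, with 3 of 6 higher (cat-2, sod-1 and sod-2) and 3 lower (cat-1, cat-3 and cat-4), and 0 members. The fall was steep for cat-3, at 17.7 CPM in stage 3 and 108 CPM in stage 2. Heat shock genes gave 2 higher and 3 lower of 10, again with 0 members. The shares over all genes tested were 20.8% higher and 18.2% lower.

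The carotenoid pathway, which makes the orange pigment of N. crassa, had 2 members. These were al-2 (phytoene synthase) and ylo-1 (the aldehyde dehydrogenase of the last step), and they came from opposite sides of stage 1. The level of al-2 was 94.5, 76.1 and 78.3 CPM in stage 1, 13.6, 12.9 and 13.5 CPM in stage 2, 22.6, 25.3 and 23.9 CPM in stage 3, and 13.1, 13 and 14.5 CPM in stage 4. That of ylo-1 was 25.05, 27.1 and 26.4 CPM in stage 1, 49.3, 48.7 and 53.7 CPM in stage 2, 85.0, 95.2 and 87.0 CPM in stage 3, and 50.4, 48.6 and 54.0 CPM in stage 4. In both the stage 3 libraries exceeded stages 2 and 4 without overlap. With al-1 (phytoene dehydrogenase) and al-3 (geranylgeranyl diphosphate synthase), 4 of 4 genes tested were higher in stage 3, with log2 changes of 0.56 to 0.79. For al-2 and ylo-1 the rule required this, and the list was drawn up after the values had been seen. Over all genes tested 20.8% were higher and 18.2% lower.

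The neighbouring genes gcy-1 (a glycerol dehydrogenase) and cut-1 (a locus of osmotic sensitivity) were both members. For gcy-1 the level was 186, 149 and 135 CPM in stage 1, 51.8, 56.4 and 67.8 CPM in stage 2, 225, 189 and 216 CPM in stage 3, and 55.0, 52.5 and 71.5 CPM in stage 4. For cut-1 it was 223, 188 and 163 CPM in stage 1, 50.7, 53.3 and 55.2 CPM in stage 2, 141, 144 and 132 CPM in stage 3, and 52.4, 50.9 and 56.2 CPM in stage 4. Relative to conidia, gcy-1 was thus 1.34 times as high in stage 3 and cut-1 0.726 times as high. They lie on chromosome IV at 747091 to 748922 and 749584 to 752599 (NC12), with 661 bases between them.

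The polyubiquitin gene ubi had 1080, 951 and 863 CPM in stage 1, 239, 234 and 238 CPM in stage 2, 569.6, 654 and 542 CPM in stage 3, and 252, 236 and 245 CPM in stage 4. Of 32 proteasome and ubiquitin genes tested, it was the single member, with 10 higher and 1 lower in stage 3 than in stage 2 and a median log2 change of 0.10. All genes tested gave 20.8% higher and 18.2% lower, and this list was drawn up after the values had been seen. The gene acu-9 encodes malate synthase of the glyoxylate route. It had 56.8, 50.3 and 48.8 CPM in stage 1, 57.3, 61.8 and 48.9 CPM in stage 2, 121, 132 and 128 CPM in stage 3, and 58.7, 62.4 and 62.7 CPM in stage 4, so stage 3 stood apart from the other stages, which lay between 48.8 and 62.7 CPM. The clock-controlled gene ccg-16 reached 285, 364 and 296 CPM in stage 3, against 136, 140.3 and 155 CPM in stage 2. The transcription factor gene ada-1, named for altered development in its mutant, reached 76.8, 54.3 and 68.5 CPM in stage 3, against 22.5, 23.9 and 31.8 CPM in stage 2. Its span overlaps NCU16460, which was also a member. Further members with a symbol were mus-40, from a screen for mutagen sensitivity, at 51.4 ± 3.59 CPM in stage 3 and 25.2 ± 1.12 CPM in stage 2, mig-10 at 59.6 ± 4.28 and 30.1 ± 1.14 CPM, and pkr1 at 58.7 ± 4.32 and 33.5 ± 1.39 CPM (SD, n = 3 each).

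Genes of secondary metabolism were of interest to the study, which assigned genes to numbered clusters (SMCs). The members held 10 of these genes, and of the 140 tested 46 were higher and 19 lower in stage 3 than in stage 2, with a median log2 change of 0.11. Among all genes tested 20.8% were higher and 18.2% lower. The 46 include the 10 members, which the rule chose for this rise. In SMC no. 7 the members were pks-3, a polyketide synthase gene, and ada-6, a developmental regulator. The level of pks-3 was 33.3, 40.2 and 33.7 CPM in stage 1, 17.7, 18.8 and 17.7 CPM in stage 2, 47.7, 47.5 and 53.4 CPM in stage 3, and 16.2, 15.1 and 19.4 CPM in stage 4. That of ada-6 was 16.96, 16.2 and 15.03 CPM in stage 1, 8.11, 8.06 and 8.73 CPM in stage 2, 32.1, 30.01 and 36.3 CPM in stage 3, and 10.5, 9.53 and 7.38 CPM in stage 4. Of 4 genes of this cluster tested, NCU04862 was also higher in stage 3, at 7.36 CPM against 2.21 CPM in stage 2, below the level the rule asks for. NCU04861 was lower, at 4.18 CPM against 5.58 CPM.

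In SMC no. 5, 3 adjacent genes on chromosome II were members, between 4067624 and 4083472 (NC12). NCU08439, annotated by the study as a leptomycin B resistance protein, had 168, 234 and 242 CPM in stage 1, 20.3, 22.8 and 23.4 CPM in stage 2, 56.2, 56.8 and 57.8 CPM in stage 3, and 22.0, 23.1 and 23.7 CPM in stage 4. NCU08441, the nonribosomal peptide synthetase gene nps-1, had 48.3 ± 13.6 CPM in stage 1, 10.2 ± 0.391 CPM in stage 2, 25.4 ± 2.58 CPM in stage 3 and 10.4 ± 0.634 CPM in stage 4. Both were highest in conidia. NCU08440, which lies between them, did not share the conidial level, with 20.2 ± 0.612 CPM in stage 3 and 8.90 ± 1.58 CPM in stage 1. Of the other genes of this cluster, NCU08436 and NCU08443 were lower in stage 3 and NCU08445 did not pass the test.

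SMC no. 11 held NCU07126 and NCU07117, the second annotated as an ornithine-N5-oxygenase, the enzyme that starts siderophore synthesis. NCU07126 had 43.7, 53.7 and 58.5 CPM in stage 1, 49.4, 48.6 and 57.5 CPM in stage 2, and 169.5, 201 and 183 CPM in stage 3. NCU07117 had 41.97, 67.2 and 72.3 CPM in stage 1, 7.75, 9.19 and 10.1 CPM in stage 2, and 24.7, 23.9 and 25.6 CPM in stage 3. In the first of these conidia and polar growth overlapped, and in the second conidia were highest. SMC no. 12 held NCU17064, annotated as a 5-nitroimidazole antibiotic resistance protein, with 25.8, 34.5 and 27.6 CPM in stage 3, against 7.70, 6.72 and 6.29 CPM in stage 2. The remaining cluster members were al-2 of SMC no. 1 and nuo21.3c of SMC no. 15. The lists of conidial markers, growth markers, complex I, alternative respiration, SMC no. 7 and all SMC genes followed fixed names. The other lists, SMC nos. 5, 11 and 12 among them, were drawn up by symbol after the values had been seen. Each list count includes the members in the list, whose higher stage 3 mean the rule required.

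The most abundant nuclear members were mostly without a symbol. NCU06783 was the highest, with 333, 348 and 335 CPM in stage 1, 649.8, 671 and 682 CPM in stage 2, 1379, 1505 and 1426 CPM in stage 3, and 649, 655 and 684 CPM in stage 4. NCU06785 had 166, 207 and 195 CPM, 677, 705 and 718 CPM, 1372, 1101 and 1432 CPM, and 658, 702 and 700.0 CPM in stages 1 to 4. Both were lowest in conidia, with log2 changes of 1.05 ± 0.06 and 0.84 ± 0.11 for stage 3 minus stage 2. NCU05259 stood at 1345 ± 124 CPM in stage 3 and 763 ± 39.9 CPM in stage 2. NCU08674 stood at 405, 609.7 and 535 CPM in stage 1, 264, 262 and 245 CPM in stage 2, and 701, 540.1 and 701 CPM in stage 3, so that stage 3 overlapped conidia. Per kilobase of gene span, NCU06785 at 465, aro-7 at 462 and NCU06783 at 447 CPM in stage 3 were close to each other.

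The members were spread over the genome. Of the 210, 203 were protein coding, 4 rRNA, 2 pseudogenes and 1 a noncoding RNA gene (NCU14153). Nuclear coding members numbered 201 and made up 2.46% of the nuclear coding genes tested, ranging from 1.42% on chromosome VII (12 genes) to 3.61% on chromosome VI (29 genes). Chromosome I had the most, 51. Their gene spans had a median of 2131 bases, against 2330 bases in the 8170 nuclear coding genes tested and 2593 bases in the 5018 of these that reached 20 CPM in stage 3. A member was next to another member on the chromosome in 10 pairs, which held 19 members (9.45% of the 201), while 3.93% of the nuclear coding genes that were not members had a member as the next gene on either side. Without pairs whose spans overlap, the members' share was 6.47% (13 genes). These shares are a description with no test. Besides the pairs named above these were NCU09115 and NCU09116, NCU05257 and NCU05259, NCU03107 and NCU03108, and NCU05996 and ubi. The spans of 3 pairs overlap (NCU09115 with NCU09116, ada-1 with NCU16460 and NCU00148 with NCU00149), and in all 67 members overlap the span of another gene. The libraries were strand-specific, but how the counting resolved overlapping genes was not tested.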

How the data were processed

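Stranded libraries were made from poly(A) RNA. According to labels and methods, the authors aligned reads with HISAT2 2.1.0 and made a table of expected counts (whole numbers from coverage, unnormalised) with StringTie 1.3.3b, which they deposited. The deposited ratio table, a LOX estimate of relative expression by the authors, was not used. Totals were 42996748 to 71990884 counts per library. The labels only number the replicates, which the study's methods call biological. Whether they were grown as separate cultures is not stated. Tests measure the spread between these samples, and counting error bounds only part of it.

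CPM for the rule left out NCU17319 and NCU15719 from the totals. Genes past filterByExpr (minimum count 10, minimum total 15) were fitted with edgeR 4.0.16 (R 4.3.3, limma 3.58.1), TMM factors of 0.730 to 1.09, 1 coefficient per stage, 12 libraries, quasi-likelihood F tests and Benjamini-Hochberg adjustment at 0.05. The fit was also run on simulated counts with some genes raised in stage 3 and no other difference between stages. Those counts held no library like stage 3 replicate 2, so they cannot show how the fit handles it. DESeq2 1.42.0, other scalings, no filter, left-out libraries, a replicate block and other limits of the rule were tried, and summaries used pandas 2.3.3 in Python 3.11.15.

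Symbols, biotypes and spans came from RefSeq (assembly NC12), which matched 10590 IDs, 1118 with a symbol. It was used here without product text or sequence, so planned product classes and promoter motifs were not analysed. Named genes were the 10 members of largest ratio, the 10 of highest stage 3 level, those with a symbol, the 3 genes on either side of 1.7, and list members. NCU03254, NCU01060 and genes of neighbouring pairs were named after their values were seen. The members and lists were chosen with earlier results of these data known.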

Additional observations from a re-analysis of the deposited data

How the results depend on the processing

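The counts of members called in the 5 contrasts stayed within 1.5 times of those reported under DESeq2, its size factors in edgeR, library totals with and without the 2 rRNA genes, no filter, the replicate block and, chosen after seeing the data, a fit without rRNA and mitochondrial genes. Requiring 2-fold as well moved them to 92 higher for stage 3 against stage 2, 96 lower for stage 4 against stage 3, 21 higher and 70 lower for stage 2 against stage 1, and 78 higher and 25 lower for stage 3 against stage 1. Leaving out 1 library gave 201 to 207, 201 to 208, 48 to 53, 113 to 121, 121 to 131 and 51 to 58 in the same order, and 0 in each case for stage 4 against stage 2. The number of members was 110 with CPM from whole library totals, 353 at a ratio of 1.5, 104 at a ratio of 2, 172 with TMM-scaled CPM (171 shared), 245 at 10 CPM, and 181 to 226 with 1 library left out. For stage 3 against stage 2 and stage 4 against stage 3, the named members gave 2010 comparisons with the same call, 55 weaker, 10 stronger and 9 reversed. All of the last 3 kinds concern the 8 rRNA and mitochondrial members. The rule used both contrasts, so nothing is read from the calls that stayed the same. These comparisons do not cover the calls against stage 1. Over the fits that left out 1 library, the log2 change of stage 3 minus stage 2 ran from -0.45 to 4.44 for NCU15828, -0.21 to 3.78 for NCU16017, -0.14 to 3.21 for NCU16302, -0.20 to 2.20 for NCU17319, -0.52 to 1.35 for NCU15719, -0.21 to 1.13 for NCU16301 and -0.076 to 1.72 for NCU17318. That of stage 4 minus stage 3 ran from -4.41 to 0.49 for NCU15828 and from -3.98 to 0.16 for NCU16017. The reversed end is in each case the fit without stage 3 replicate 2. Same-numbered libraries did not pair consistently (6 of 18 correlations of their deviations were over 0.1, range -0.39 to 0.31). Between stages 2 and 4 these were -0.052, 0.20 and 0.28 for replicates 1 to 3, against -0.27 to 0.055 for different numbers. Whether those 2 stages pair was not tested further. The replicate block gave 201 members higher for stage 3 against stage 2 and 201 lower for stage 4 against stage 3.

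The limits are those of stages 2 and 4 that the data do not separate, of 3 libraries a stage from 1 strain and 1 temperature, of stages that hold cells at mixed progress, and of CPM as a share of each library. Without stage 3 replicate 2 the rule lost the 8 rRNA and mitochondrial members and 27 others, and without stage 3 replicate 1 or 3 it lost 8 or 11 nuclear members. Why was not tested. Most members carry no symbol, so the groups described cover a minor part of them.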
